A study of Mus musculus with 8 samples.

Results

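GC-rich promoter initiation sites of one direction are replication initiation sites (ISs) that lie at protein-coding promoters with a high share of G and C bases, where every nearby gene start points the same way. A site was included when its own sequence was at least 60% GC, when it lay within 1 kb of a gene start, that is, a protein-coding transcription start site (TSS), and when all such TSSs within 1 kb were on one strand. The rule was applied to 16 autosomes. Chromosomes 10, 15 and 16 were left out by the rule. The median log2 fold change of all ISs there was -0.36, 0.16 and 0.33 in Rif1KO against WT. In the table of Rif1KO against WT, 847 of 39116 ISs met it, and they belonged to 803 genes. In the table of Rif1KO_shMcm6 against Rif1KO_shLacZ, 950 of 129937 ISs met it, at 887 genes. Together they touched 1268 genes, and 422 of these had a member in both tables, which is 52.6% of the genes in the first and 47.6% of those in the second. Most genes had 1 member. Of the first set 40 genes had 2 and both Cux2 and Myst4 had 3. In the other set 59 genes had 2, and Kctd1 and Myst4 had 3. Sites of 1 gene share a promoter and are not independent.

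CH12, a B cell lymphoma line of the mouse, was the source of all libraries, and ISs were mapped by sequencing short nascent strands (SNS-seq). The cells were all stimulated with IL4, CD40 and TGF beta. SNS-seq isolates short new DNA strands that keep their RNA primer and so resist lambda exonuclease, and the read density at an IS measures its use in the cell population. The 8 libraries comprised 2 each of WT cells, Rif1KO cells (Rif1 knockout), Rif1KO_shLacZ cells (Rif1 knockout with a lentiviral hairpin against LacZ, the control hairpin) and Rif1KO_shMcm6 cells (Rif1 knockout with a hairpin against Mcm6). Rif1 was therefore absent by genotype from all groups except WT, and MCM6 depletion was measured only on that background. The tables give 1 density per condition, in log2 RPM (reads scaled to a sum of 1000000 over the ISs of a table), with both libraries pooled. No value below has a replicate error and no test between conditions could be made. The counting error of the reads is given instead, and differences refer to these pooled libraries. Reads inside ISs numbered 3350255 in WT and 3724571 in Rif1KO, and 21071351 and 23602750 in the hairpin groups. The tables were scaled one by one, and no density is compared across them. Density of DNA reads measures neither RNA nor protein, so the genotypes, the depletion and the cell identity could not be checked from it, and neither Rif1 nor Mcm6 had a member.

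Replication starts where MCM helicase complexes, loaded in pairs in G1, are activated in S phase. Initiation in mammalian cells is common near active, GC-rich promoters, many of which are CpG islands, that is, stretches in which CpG dinucleotides escaped the loss seen in the rest of the genome. Just downstream of such TSSs the coding strand often carries more G than C, and runs of G can fold into G-quadruplexes, which have been linked to initiation. MCM6 is a subunit of the helicase. RIF1 recruits the phosphatase PP1 and takes part in setting replication timing.

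The sequence of the members is shown by 7 stretches of 150 bp, all outside annotated exons, from the mm9 genome and written 5′ to 3′ on the coding strand of the gene. Capitals mark G-quadruplex motifs, here 4 runs of GGG or longer with 1 to 7 bases between them, or the same motif on the template strand, where it reads as runs of CCC. Each stretch was chosen as the exon-free window of its site with the most bases in motifs. Its motif content is thus a maximum and not typical of the site. Dcun1d4 and Zfp467 were among the 5 densest members of both tables, and their stretches were intronic, at positions 96 to 245 and 471 to 620 from the TSS (chr5:73882774-73882923, plus strand, and chr6:48394463-48394612, minus strand). Tcfap2a, at positions -757 to -608 from its nearest TSS, carried the motif on the template strand (chr13:40826395-40826544, minus strand).
Dcun1d4: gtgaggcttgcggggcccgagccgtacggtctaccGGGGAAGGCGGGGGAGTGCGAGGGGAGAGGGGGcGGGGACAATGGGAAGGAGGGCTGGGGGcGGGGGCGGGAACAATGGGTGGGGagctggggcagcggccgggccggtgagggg
Zfp467: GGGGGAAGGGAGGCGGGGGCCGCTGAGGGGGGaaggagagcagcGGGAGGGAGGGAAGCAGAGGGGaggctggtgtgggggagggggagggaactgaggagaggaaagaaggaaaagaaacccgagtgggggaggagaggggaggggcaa
Tcfap2a: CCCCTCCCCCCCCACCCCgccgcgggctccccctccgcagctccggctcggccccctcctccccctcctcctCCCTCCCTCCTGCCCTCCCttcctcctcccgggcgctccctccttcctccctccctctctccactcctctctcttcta
Nucks1 had the lowest fold change in Rif1KO against WT (positions -225 to -76, chr1:133806810-133806959, plus strand). Foxf1a was the single shared member that was lower by 1.5-fold in both comparisons (positions -280 to -131, chr8:123608006-123608155, plus strand). Ptpn12 had the lowest fold change after MCM6 depletion (positions -150 to -1, chr5:20561730-20561879, minus strand), and Creg1 the highest (positions -1999 to -1850, chr1:167697608-167697757, plus strand).
Nucks1: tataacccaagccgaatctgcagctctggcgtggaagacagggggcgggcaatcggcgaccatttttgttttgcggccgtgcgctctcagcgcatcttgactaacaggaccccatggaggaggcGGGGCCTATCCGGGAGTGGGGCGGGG
Foxf1a: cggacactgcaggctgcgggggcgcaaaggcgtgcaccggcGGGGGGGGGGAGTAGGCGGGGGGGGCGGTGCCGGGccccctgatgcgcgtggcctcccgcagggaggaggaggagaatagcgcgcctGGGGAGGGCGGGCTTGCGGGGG
Ptpn12: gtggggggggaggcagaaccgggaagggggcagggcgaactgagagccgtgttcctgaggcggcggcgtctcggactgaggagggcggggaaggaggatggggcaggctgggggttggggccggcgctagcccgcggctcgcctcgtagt
Creg1: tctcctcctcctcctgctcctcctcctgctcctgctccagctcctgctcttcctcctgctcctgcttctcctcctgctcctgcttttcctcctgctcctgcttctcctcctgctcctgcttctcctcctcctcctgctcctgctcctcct
The stretch at Dcun1d4 held 88 G and 26 C bases, with 83 of its 150 bases inside the motif, and that at Zfp467 held 89 G and 13 C. The stretch at Creg1 was a repeat of CT-rich units with 15 G and 78 C, no CpG and no motif in these letters. At Foxf1a 57 bases lay in motifs on the coding strand, with 16 CpGs. The Ptpn12 stretch ended at the base before the TSS and contained 14 CpGs and no full motif.

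Members were denser than the median IS in the controls of both tables. In WT the median density was 5.05 log2 RPM (quartiles 4.61 and 5.65) against 4.45 over all 31414 ISs on the same chromosomes, so the median member stood at percentile 82.8. In Rif1KO the median was 4.82, at percentile 72.2, against 4.44 over all ISs. The range ran from 3.47 to 7.51 in WT and from 2.91 to 7.38 in Rif1KO, with 37 to 609 and 28 to 621 reads per member. In Rif1KO_shLacZ the members' median was 3.05, against 2.75 over 108860 ISs, at percentile 66.2. In Rif1KO_shMcm6 it was 2.92, against 2.76, at percentile 59.1. Reads per member spanned 35 to 982 and 50 to 1129 in these groups. Other GC-rich ISs were also denser than the median IS. Those at promoters with TSSs on both strands had 5.09 in WT and 2.90 in Rif1KO_shLacZ, and those away from promoters 4.91 and 2.87. Within each table the members' percentile was lower in the treated condition. The tables hold different numbers of ISs, and the percentiles are not compared between them. Members held 3.45% of the WT reads and 2.98% of the Rif1KO reads in ISs, being 2.17% of the sites of that table. In the hairpin table they were 0.731% of the sites and held 0.991% and 0.897% of the reads.

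**Figure D1:**
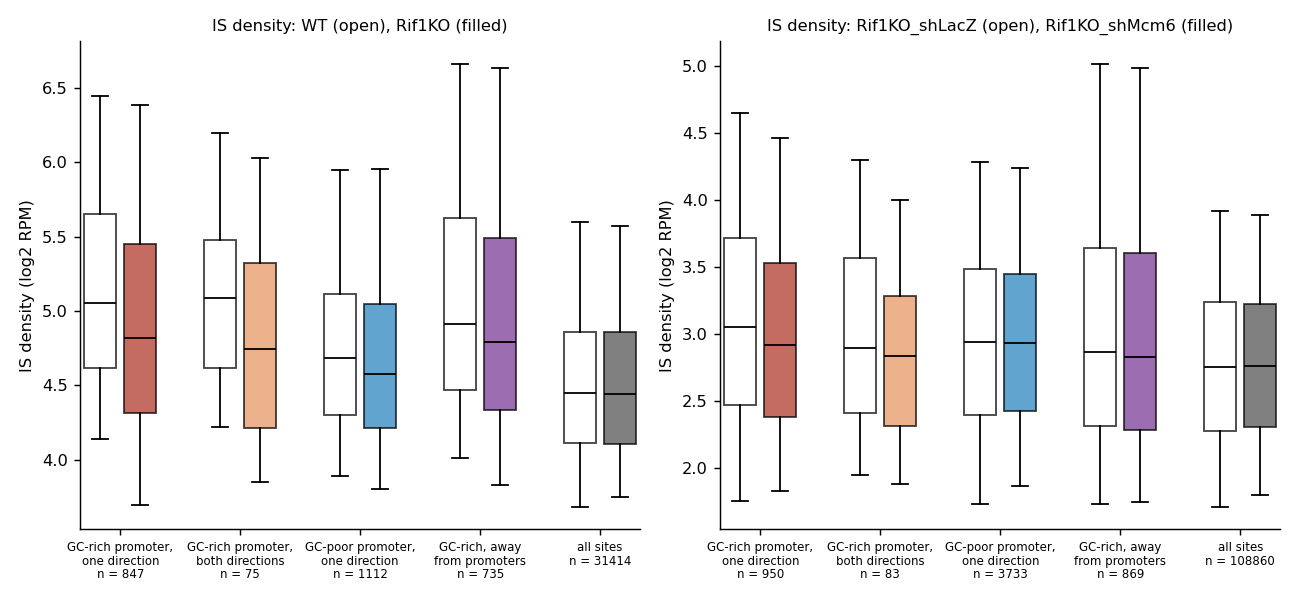
Density of ISs in log2 RPM (y axis) in the control (open boxes) and treated condition (filled boxes) of each table, for members, GC-rich promoter sites with TSSs on both strands, GC-poor promoter sites of one direction, GC-rich sites over 1 kb from any protein-coding TSS, and all sites on the same 16 autosomes. Boxes span the quartiles, the line is the median and whiskers reach the 5th and 95th percentiles of sites. The members' median was 5.05 in WT and 4.82 in Rif1KO, and 3.05 and 2.92 in the hairpin groups.

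In Rif1KO cells most members had a lower density than in WT, and a smaller share of other ISs did so by as much. The log2 fold change of a member, treated minus control, had a median of -0.22 in Rif1KO against WT (quartiles -0.41 and -0.07), whereas the median over all ISs was 0.01. Of the 847 members, 727 had a density below that in WT, which is 85.8%, against 48.6% of all ISs. The density of 93 members was lower by 1.5-fold or more, that is 11.0% (95% Wilson interval 9.05 to 13.3%). Over all ISs of these chromosomes the same share was 1.35%. A single member, upstream of AI467606, was higher by 1.5-fold, 0.118% of members (0.0208 to 0.666%) against 0.945% of all ISs. These intervals treat sites as independent and cover neither the counting error of the reads nor the spread between replicates, and fewer cells that use a site cannot be told apart from less use per cell. The median counting error of a member's fold change was 0.20 on the log2 scale, and 27.5% of members lay more than 1.96 such errors below 0 against 3.57% of all ISs. Such a share compares pooled libraries. Per the study's methods replicates came from separately thawed vials of cells, but the spread between them is not in the pooled values.

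The shift was close to that of the 75 GC-rich promoter sites whose TSSs ran on both strands, with a median of -0.23 and 14.7% lower by 1.5-fold (8.39 to 24.4%). GC-poor promoter sites of one direction had a median of -0.07 and 1.98% lower (1.31 to 2.98%), and GC-rich sites away from promoters had a median of -0.11 and 4.49% lower (3.21 to 6.24%). On each of the 16 chromosomes the members' median lay below that of all ISs, with differences from -0.36 to -0.13.

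After MCM6 depletion in Rif1KO cells members were found on both sides, with more below the control than above it. The median log2 fold change of the 950 members was -0.15 (quartiles -0.38 and 0.15) against -0.01 over all ISs, and 63.2% of members had a lower density than in Rif1KO_shLacZ. The density of 100 members was lower by 1.5-fold, 10.5% (8.73 to 12.6%) against 1.5% of all ISs. In this comparison 46 members were higher, 4.84% (3.65 to 6.40%), against 4.82% of all ISs. These shares were 2.21% and 2.95% on the log2(RPM + 1) scale, and 2.72% and 3.02% among sites above the lower quartile of mean density. Beyond 1.96 counting errors, 35.2% lay below 0 and 14.1% above, against 12.01% and 13.2% of all ISs. Sites with TSSs on both strands had a median of -0.20 with 13.3% lower (7.56 to 22.2%). The medians of GC-poor promoter sites and of GC-rich sites away from promoters were -0.02 and -0.08, with 2.14% (1.72 to 2.66%) and 5.29% (3.99 to 6.99%) lower. The members' median was below that of all ISs on 15 of 16 chromosomes. The exception was chromosome 18, where 31 members had a median of 0.17 against -0.03.

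**Figure D2:**
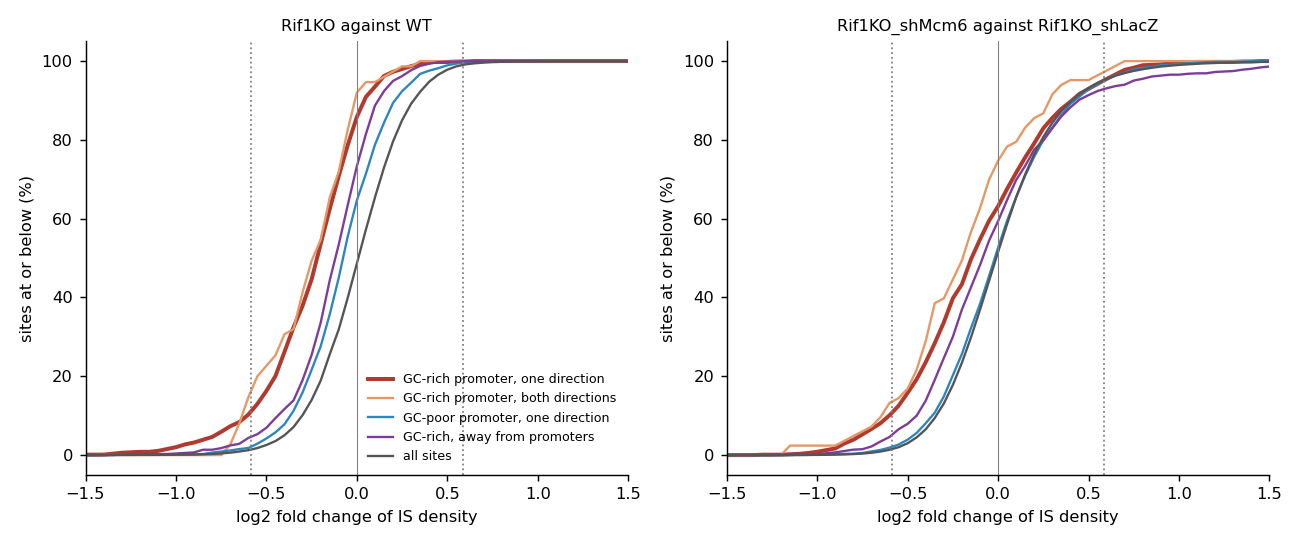
Cumulative share of sites (y axis, percent) at or below a log2 fold change of IS density (x axis, drawn from -1.5 to 1.5), for members and the comparison sets in each contrast. Dotted lines mark 1.5-fold. In Rif1KO against WT the members' curve lies left of that of all sites until both reach 100%, and in the hairpin contrast it meets that of all sites on the right, where 4.84% of members and 4.82% of all sites were higher by 1.5-fold.

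Whether a site had been called as a peak moved with these shares. In Rif1KO against WT 529 members were called in both conditions, 236 in WT only (27.9%, against 13.6% of all ISs) and 82 in Rif1KO only (9.68%, against 33.3%). Of the 93 lower members, 78 were called in WT only, which is 83.9%, near the 85.6% of all lower ISs. Among members called in both conditions 2.27% were lower by 1.5-fold against 0.342% of all ISs called in both, and their median fold change was -0.18. After MCM6 depletion 592 members were called in both, 145 in Rif1KO_shLacZ only (15.3%, against 11.0% of all ISs) and 213 in Rif1KO_shMcm6 only (22.4%, against 22.9%). Of the 100 lower members, 49 were called in both conditions and 46 in the control only, against 34.3% and 63.0% of all lower ISs. Among members called in both, 8.28% were lower against 0.776% of all such ISs. Of the 46 higher members, 38 were called in Rif1KO_shMcm6 only, which is 82.6%, near the 80.5% of all higher ISs. The part of peak calling in these shares was not tested beyond this split.

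Fold changes followed the GC content of the site, which the rule used only as a minimum. The 362 members of 60 to 65% GC had a median of -0.17 in Rif1KO against WT, with 6.08% lower by 1.5-fold. The 236 members of 65 to 70% had a median of -0.21 with 11.9% lower. The 166 members of 70 to 75% had a median of -0.31, and the 83 members of 75% or more had a median of -0.39, with 13.9% and 24.1% lower. Over all ISs of the same bins (n = 988, 367, 207 and 95), members included, the shares lower were 4.55%, 10.9%, 13.04% and 26.3%. Members made up most ISs of the last 3 bins, so these shares are not independent of theirs. GC-rich sites away from promoters had smaller shifts in the first 3 of these bins, with medians of -0.11, -0.10 and -0.13 (n = 596, 108 and 25). Of these sites 3.36%, 7.41% and 8.0% were lower by 1.5-fold. In their last bin were 6 sites, with a median of -0.49 and 3 lower. After MCM6 depletion the members' medians were -0.11, -0.18, -0.50 and -0.91 (n = 635, 248, 60 and 7). In the last bin 7 of 7 members were lower by 1.5-fold, and in the bin of 70 to 75% GC 27 of 60 were (45.0%). Over all ISs of these bins 100% of 8 and 41.3% of 75 were lower. Most of these ISs are the members themselves, so the shares are not independent. GC-rich sites away from promoters in the first 3 bins had medians of -0.08, -0.07 and -0.31 (n = 747, 111 and 10), and 1 of the 10 was lower by 1.5-fold. The single such site of 75% GC or more was also lower, at -1.21. Over all ISs, which include the members and sites under 60% GC, Spearman's rho between GC content and fold change was -0.32 (n = 31414) and -0.17 (n = 108860). Over members it was -0.28 and -0.21. In Rif1KO against WT the first 3 bins of GC-rich sites away from promoters showed no such order. Few of these sites lay in the higher bins of either table. At the edge of the rule, the 55 otherwise matching sites of 59 to 60% GC had a median of -0.14 and the 76 members of 60 to 61% a median of -0.17, and in the hairpin table the medians were -0.02 (n = 193) and -0.09 (n = 183). Sites of a table share libraries, depth and amplification, and the part of GC-dependent recovery of DNA in library preparation was not tested.

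**Figure D3:**
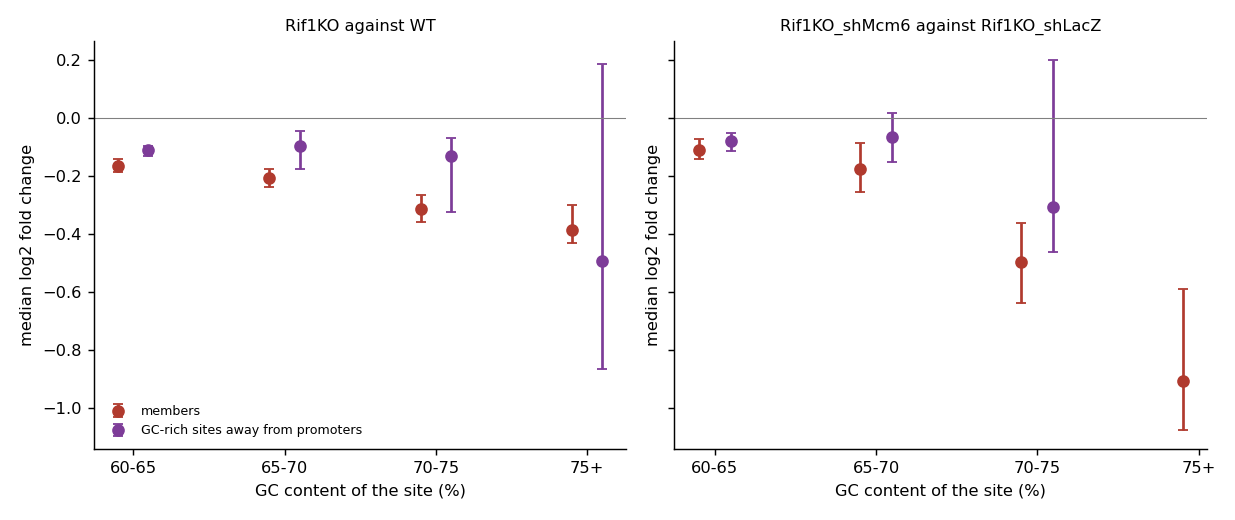
Median log2 fold change (y axis) of members and of GC-rich sites over 1 kb from a protein-coding TSS, by GC content of the site (x axis, percent), in both contrasts. Bars are 95% order-statistic intervals over sites, which are not replicates, and bins with 5 sites or fewer are not drawn. The members' medians run from -0.17 to -0.39 in Rif1KO against WT and from -0.11 to -0.91 after MCM6 depletion.

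Among members CpG content showed the same order. CpG observed over expected in 500 bp around the midpoint had a median of 0.75 in the first table and 0.65 in the second, against 0.16 and 0.15 over all ISs. The 80 members under 0.4 had a median fold change of -0.15 in Rif1KO against WT, and the 67 members of 1 or more a median of -0.32. After MCM6 depletion the corresponding medians were -0.08 (n = 128) and -0.45 (n = 20). Other ISs of these bins had 0.02 (n = 28616) and -0.10 (n = 31) in Rif1KO against WT. After MCM6 depletion they went the other way, with -0.01 (n = 101851) and 0.24 (n = 58).

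The relation with density differed between the comparisons. Among members split into 3 groups of like size by mean density of both conditions, 23.0% of the weakest were lower by 1.5-fold in Rif1KO against WT, then 8.87%, and 1.06% of the densest. The medians of the groups were -0.33, -0.23 and -0.15. After MCM6 depletion the medians were -0.02, -0.15 and -0.20, with 12.03%, 11.7% and 7.89% lower and 10.1%, 3.47% and 0.946% higher. Counting error is larger at weaker sites. No share over all ISs of like density stands beside these, so they are not read as particular to members. Spearman's rho of fold change with mean density was 0.31 over the 847 members and -0.17 over the 950, and -0.08 and -0.12 over all ISs. Wider members shifted less in the first table. The 75 members over 900 bp had a median of -0.15 and the 124 under 400 bp a median of -0.31.

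Members clustered around the TSS, on both of its sides. In Rif1KO against WT 52.8% had their midpoint downstream of the nearest TSS (49.4 to 56.1%), and after MCM6 depletion 55.1% (51.9 to 58.2%). The site covered a TSS at 59.6% and 53.3% of members, against 20.1% and 23.4% of GC-poor promoter sites of one direction and 81.3% and 77.1% of GC-rich sites with TSSs on both strands. By the transcripts of the assigned gene, the midpoint lay in an intron at 361 members of the first table, in an exon at 190 and outside at 296. In the second these numbers were 405, 225 and 320. The GC content of promoters is itself uneven there. Over 6578 promoters of one direction with at least 60% GC in the 500 bp around their TSS, mean GC was 70.9% at the TSS. It was 51.3% at 400 bp upstream and 63.7% at 400 bp downstream, and 500 bp windows of at least 60% GC made up 17.3% at the first of these distances and 67.1% at the second.

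**Figure D4:**
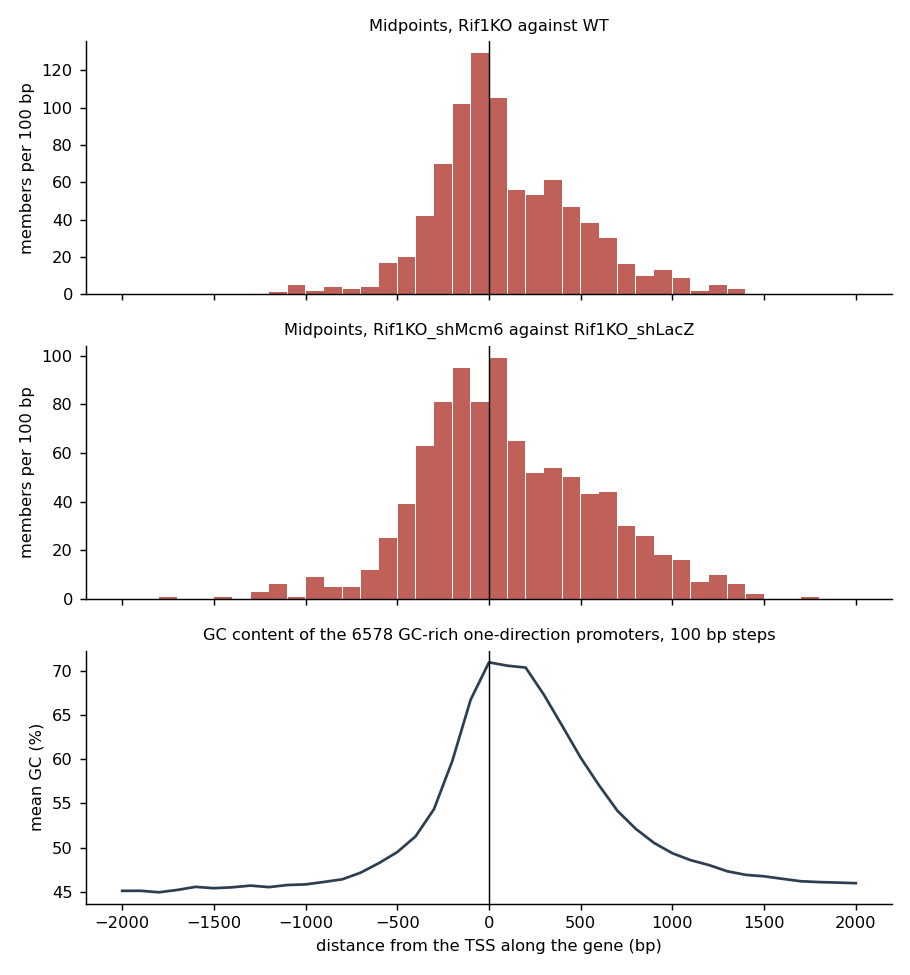
Number of members per 100 bp (y axis, upper and middle panels) by distance of the midpoint from the nearest TSS along the gene (x axis, bp, negative upstream), and mean GC content (lower panel, percent) of GC-rich one-direction promoters at the same distances. The fullest 100 bp bins hold 129 and 99 midpoints, both next to the TSS, and the tail is longer downstream, where mean GC also declines more slowly.

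In both tables the members' medians were lower in the windows next to the TSS than between 500 and 1000 bp away on either side. At 500 to 1000 bp upstream they were -0.16 (n = 30) and -0.03 (n = 56). At 250 to 500 bp upstream they were -0.17 (n = 91) and -0.11 (n = 137). The 272 members with a midpoint in the 250 bp upstream of the TSS had a median of -0.26 in Rif1KO against WT, and 16.9% of them were lower by 1.5-fold. In the 250 bp downstream the median was -0.25 with 11.1% lower (n = 190). Between 500 and 1000 bp downstream the median was -0.17 with 5.61% lower (n = 107). After MCM6 depletion the medians were -0.17 and -0.18 in the windows next to the TSS (n = 222 and 192) and -0.11 between 500 and 1000 bp downstream (n = 161). Between 250 and 500 bp downstream the medians of the 2 comparisons were -0.19 and -0.18, with 6.06% (n = 132) and 14.1% lower (n = 128). Midpoints over 1 kb away were few. Their medians in Rif1KO against WT were -0.21 upstream (n = 6) and -0.31 downstream (n = 19), with 16.7% and 15.8% lower. After MCM6 depletion they were -0.02 (n = 12) and 0.01 (n = 42), with 0 lower. Over all promoter ISs, members and GC-poor sites included, the shares lower in Rif1KO against WT were 12.8% and 9.97% in the windows next to the TSS, 4.33% at 250 to 500 bp downstream and 2.97% at 500 to 1000 bp. Over 1 kb away they were 0.980% upstream and 3.39% downstream, and the share at 250 to 500 bp after MCM6 depletion was 5.79%. Median GC content of members was also highest in the windows next to the TSS, at 67.1% and 69.1% in the first table, against 64.0% at 500 to 1000 bp.

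G outnumbered C on the coding strand. The skew, (G - C)/(G + C) in the 500 bp around the midpoint, had a median of 0.20 in the first table and 0.11 in the second, and was above 0 at 64.0% and 61.3% of members. It was above 0 on both sides of the TSS, with medians of 0.16 upstream and 0.22 downstream in the first table and 0.06 and 0.13 in the second. Far upstream it was below 0. Over 500 bp upstream the median was -0.24 (n = 36) in the first table, and over 500 bp downstream it was 0.21 (n = 124). In the second table the medians were -0.08 (n = 68) and 0.07 (n = 202). A G-quadruplex motif on either strand was present in this window at 87.5% of members and 75.3% of all ISs in the first table, and at 76.5% and 50.5% in the second. The motif needs runs of G or C, so the rule's GC minimum fixes part of this, and GC-rich sites with TSSs on both strands had it at 93.3% and 72.3%. On the coding strand it was present at 56.6% and 49.3% of members, and on the template strand at 37.4% and 37.7%. Upstream by over 500 bp the template strand held it more often, at 66.7% against 27.8% in the first table, as at Tcfap2a above. Motif and fold change showed no common order in the tables. The 106 members with no motif had a median of -0.27 in Rif1KO against WT, and those with a motif on the coding strand alone had -0.21 (n = 424). After MCM6 depletion these medians were -0.12 (n = 223) and -0.17 (n = 369).

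Most GC-rich promoters held no member. Of the 6578 promoters, 639 had a member in the first table (9.71%, 9.02 to 10.5%) and 693 in the second (10.5%, 9.82 to 11.3%). The share grew with GC content, from 4.85% at 60 to 65% to 15.7% at 70% or more in the first table, and from 6.91% to 15.4% in the second. The rule's own GC minimum fixes part of this, since a site at a promoter near 60% GC can itself fall under it. In the 300 bp window from 250 bp upstream to 50 bp downstream of the first TSS, promoters with a member carried the coding-strand G-quadruplex motif more often, at 37.7% against 20.7% of promoters without one in the first table, and at 37.7% against 20.5% in the second. It was found in 11.7% of all 18901 protein-coding promoters. The GC box GGGCGG, bound by SP1, was found on either strand in 86.4% and 78.2% of promoters with and without a member in the first table, against 43.8% of all promoters. The ETS motif CCGGAAG, also searched on both strands, was found in 10.02% and 15.1% against 11.0% of all promoters, and the TATA box core TATAAA, likewise, in 2.82% and 4.98% against 13.4%. A match is a description of letters and not a bound site, and these promoters also differed in GC content, with medians of 70.4% and 66.6%.

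Of the 5 densest members of each table, Ccdc9, Dcun1d4 and Zfp467 were common to both. Ccdc9, whose product has a coiled coil, had 7.51 log2 RPM in WT (609 reads) and 7.30 in Rif1KO (587 reads), and 5.37 and 5.32 in the hairpin groups. Dcun1d4, for a factor that promotes cullin neddylation, had 7.47 and 7.38, then 5.48 and 5.26. Zfp467, for a zinc finger protein, had 7.16 and 7.26, then 5.54 and 5.58. Their fold changes lay between -0.22 and 0.10 with counting errors of 0.06 to 0.09, all within 1.5-fold. Phf23, for a PHD finger protein, and Camk2g, a calcium/calmodulin-dependent kinase subunit, completed the 5 densest of the first table at 7.48 and 7.27 in WT. Camk2g, also in both tables, had fold changes of -0.26 and -0.52. Shank1, for a scaffold protein of excitatory synapses, and Slc27a1, for a fatty acid transporter, completed those of the second at 5.34 and 5.32 in Rif1KO_shLacZ.

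The lowest members of Rif1KO against WT had midpoints at -223 to 129 bp from the TSS and were called in WT only. At Nucks1, for a nuclear chromatin-associated phosphoprotein (chr1:133806754-133807226, 60.7% GC), the density was 4.61 in WT (82 reads) and 2.96 in Rif1KO (29 reads), a log2 fold change of -1.65 with a counting error of 0.31. Ssbp3, for a single-stranded DNA binding protein (78.4% GC), had 108 reads in WT and 46 in Rif1KO, and a fold change of -1.38 ± 0.25 (counting error). Zfp644, for a zinc finger protein, had 89 and 39 reads and -1.34. Emid1, which encodes an extracellular protein with an EMI domain, had 79 and 35 reads and -1.33. Cpne5, a calcium-dependent phospholipid-binding copine, had 104 and 48 reads and -1.27. At the other end fold changes were small. AI467606 had 42 and 71 reads and 0.60 ± 0.28. Osr1, a zinc finger regulator of heart and kidney development, had 42 and 67 reads and 0.52. Tcfap2a, for the transcription factor AP-2 alpha, had 93 and 136 reads and 0.40. Satb1, a chromatin organiser of lymphocytes, had 77 and 112 reads and 0.39, and Ache, for acetylcholinesterase, 61 and 88 reads and 0.38. No condition gave more than 136 reads to any of these 10 members.

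After MCM6 depletion the 5 lowest members were Ptpn12, Foxn2, AI118078, Foxf1a and Msi2. Ptpn12, for a tyrosine phosphatase (chr5:20561398-20561965, 74.5% GC), had 3.10 log2 RPM in Rif1KO_shLacZ (181 reads) and 1.76 in Rif1KO_shMcm6 (80 reads), a fold change of -1.34 ± 0.19. Foxn2, for a forkhead factor, had 162 and 79 reads and -1.20. AI118078 had 221 and 113 reads and -1.13. Foxf1a, a forkhead factor of lung and gut mesoderm, had 162 and 86 reads and -1.08. Msi2, an RNA-binding regulator of stem cells, had 135 and 72 reads and -1.07. The highest was Creg1, for a secreted glycoprotein, in a site that ended under 1 kb upstream of the TSS (chr1:167697608-167698728). It had 236 reads in Rif1KO_shLacZ and 704 in Rif1KO_shMcm6, 3.49 against 4.90 log2 RPM, and a fold change of 1.41 ± 0.11. The next 4 started from low densities, between percentile 0.154 and 8.97 of all ISs in Rif1KO_shLacZ. Mn1, a transcriptional cofactor, had 35 and 99 reads and 1.34. Trp73, of the p53 family, had 40 and 96 reads and 1.10. Neurod2, a neuronal bHLH factor, had 50 and 118 reads and 1.08, and Ptgfrn, an inhibitor of the prostaglandin F receptor, 77 and 178 reads and 1.05.

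The members lower and higher after MCM6 depletion had different median positions, GC content and gene density, which is a description of sets chosen by fold change. The 100 lower members had a median GC content of 67.7% and covered a TSS at 63.0%, with 14.5 protein-coding genes within 500 kb at the median. The 46 higher members had 63.3% GC, covered a TSS at 34.8% and had 7 genes within 500 kb. Their median density in Rif1KO_shLacZ was 1.85 log2 RPM (76 reads), against 3.28 for the lower ones (204.5 reads). By gene density, 15.8% of the 76 members with fewer than 5 genes within 500 kb were higher by 1.5-fold and 7.89% lower. In the classes of 5 to 10, 10 to 20 and 20 to 40 genes, 8.81%, 4.18% and 1.84% were higher and 10.4%, 12.9% and 12.1% lower. Of the 122 members with 40 or more, 0 were higher and 3.28% lower. Over all ISs, from the sparsest class to the densest, the share higher was 6.01%, 4.61%, 3.71%, 3.37% and 3.49%. The share lower was 0.684%, 1.56%, 2.14%, 2.72% and 3.22%. Spearman's rho between gene density and fold change was -0.12 over members and -0.19 over all ISs. In Rif1KO against WT the lower members did not order by gene density, with 11.4% lower in the sparsest class (n = 70), 8.71% with 20 to 40 genes (n = 264) and 14.9% in the densest (n = 101). Over all ISs 0.397% were lower in the sparsest class, 2.86% with 20 to 40 genes and 4.09% in the densest. By gene length the medians of the 5 classes lay between -0.25 and -0.20 in Rif1KO against WT and between -0.17 and -0.13 after MCM6 depletion. The shares lower by 1.5-fold after MCM6 depletion were 9.18%, 7.98% and 8.86% in the classes under 50 kb, and 14.5% and 13.4% above it. Over all promoter ISs of these classes, members included, the shares were 3.07%, 3.77% and 3.997%, then 4.71% and 4.45%. The lower members had a median gene length of 49.8 kb, against 28.5 kb for members neither lower nor higher and 41.5 kb for the higher ones. Of members in Rif1KO against WT 16.9% were lower in genes under 5 kb (n = 71), and 9.26 to 12.05% in the longer classes. Over all promoter ISs these shares were 5.81% and 5.41 to 7.48%.

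Of 10 gene lists, chosen with earlier results of these data known, developmental regulators, with the most annotated genes, held the most members by count, with medians of opposite sign in the comparisons, a difference that was not tested. In Rif1KO against WT 6 of the list's 69 annotated genes had a member, and 5 of its 41 GC-rich one-direction promoters held one (12.2%), against 9.71% of all such promoters. For B cell genes 4 of 23 did and for transcription and RNA processing 3 of 15. The hairpin table had a member at 11 of the 41 (26.8%), against 10.5% of all. The list's median fold change in Rif1KO against WT was -0.28 against -0.22 over all members, and none was higher by 1.5-fold. After MCM6 depletion 15 genes had 16 members, of which 5 were higher by 1.5-fold and 0 lower. The median was 0.26 against -0.15 over all members, and 4.84% of all members were higher. These 5 were named after their values were seen. Sox2, Foxa2 and Lhx2 were called in Rif1KO_shMcm6 only and so entered the comparison through the group where they are high. Pitx1 and Irx3 were called in both conditions. The pluripotency and neural factor Sox2 had 59 reads in Rif1KO_shLacZ and 115 in Rif1KO_shMcm6 (0.80 ± 0.23). Foxa2, an endoderm factor, had 82 and 147 reads (0.68), and Pitx1, of the hindlimb and pituitary, 134 and 238 reads (0.67). Lhx2, a LIM-homeodomain factor, had 66 and 115 reads (0.64), and Irx3, an Iroquois factor, 302 and 515 reads (0.61). Irx3 was the densest of the list in Rif1KO_shMcm6, at 4.45 log2 RPM, and was below Neurog2 and Fgf8 alone in Rif1KO_shLacZ. Neurog2, a neurogenic bHLH factor, had 421 and 390 reads (-0.27), and Fgf8, for a growth factor, 393 and 295 reads (-0.58). Wnt5a, for a secreted signalling protein, had 121 and 103 reads in WT and Rif1KO (-0.39), and Lhx2 there 154 and 156 (-0.13).

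Over all 18782 protein-coding genes of these chromosomes, 4.28% had a member in the first table and 4.72% in the second, and lists of replication, repair and cell cycle genes had 0 to 2 genes with one. Of the 28 annotated genes for licensing and initiation, Gins2, a subunit of the GINS complex of the active helicase, had a member in both tables. Its reads were 79 in WT and 46 in Rif1KO (-0.93 ± 0.27), and 128 and 110 in the hairpin groups (-0.38 ± 0.19). Ppp1cb, a catalytic subunit of PP1, had 147 and 129 reads in the hairpin groups (-0.35). Of the 31 replication fork genes only Rfc3, of the clamp loader, had a member, with 59 and 65 reads in WT and Rif1KO (-0.01). Among 50 repair genes Trp53bp1 and Fancc had members in the first table, at -0.21 and 0.15, and none in the second. Of 36 cell cycle genes, E2f2 and Ccnd1 had -0.36 and -0.19 in Rif1KO against WT, and Ccnd2 and E2f3 had -0.10 and 0.66 after MCM6 depletion. E2f3, for an S-phase transcription factor, was the one called higher, from 80 to 142 reads.

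Among 51 genes of B cell identity and signalling, 5 had members in the first table and 4 in the second, none past 1.5-fold. Pim1, a serine/threonine kinase induced by cytokines, was the densest, with 203 and 263 reads in WT and Rif1KO (0.22 ± 0.13) and 395 and 312 in the hairpin groups (-0.50 ± 0.11). Tgfbr1, the type I receptor for TGF beta, had -0.27 and -0.03. Of 34 genes of transcription and RNA processing 3 had members in the first table and 1 in the second. U2af2, for a splicing factor that reads the polypyrimidine tract, had 151 and 113 reads in WT and Rif1KO (-0.57) and 361 and 455 in the hairpin groups (0.17), and Hnrnpu had -0.15 in the first table. Of the 27 genes of translation, 3 and 5 had members. Eif5a had -0.22 and -0.28, and Ubtf, a factor of ribosomal RNA transcription, had -0.30 in the first. Eef1a1, for the elongation factor that delivers tRNA, was lower by 1.5-fold after MCM6 depletion, with 271 and 169 reads (-0.84 ± 0.14). The other 3 members of the list there lay between 0.08 and 0.15, and the list's median was 0.08. Of the 36 metabolic genes 2 had members in each table. Tpi1 and Gapdh, both glycolytic, had -0.33 and 0.06 after MCM6 depletion, and Tpi1 and Ogdh had -0.01 and -0.55 in Rif1KO against WT.

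The comparisons share no library, and 392 members were matched 1 to 1 between the tables by position, 46.3% of the members of the first and 41.3% of the second. These matched members had medians of -0.21 in Rif1KO against WT and -0.27 after MCM6 depletion, and 85.7% and 79.6% of them were below 0. In both comparisons 263 of 392 were, or 67.1%, against 33.3% of all 25514 matched ISs, of which 48.3% and 65.4% were below 0 in each. Of the 392, 32 were lower by 1.5-fold in Rif1KO against WT and after MCM6 depletion 63 were, that is 8.16% and 16.1%, with Foxf1a alone in both sets, 0.255% (-0.73 ± 0.21 and -1.08 ± 0.19). Of all 25514 matched ISs 1.12% and 1.53% were lower, and 13 were in both sets, 0.051%. Across the 392 members the fold changes had a Spearman's rho of -0.19 and Pearson's r of -0.23, whereas over all 25514 matched ISs these were 0.12 and 0.11. Members of a table share depth and scaling, and the correlations are descriptions. Ptgfrn was the extreme, with 5.15 log2 RPM in WT and 4.01 in Rif1KO (-1.14 ± 0.23), and 1.87 in Rif1KO_shLacZ and 2.91 in Rif1KO_shMcm6 (1.05 ± 0.20). Cpne5 had -1.27 and 0.34. Ptpn12, the lowest after MCM6 depletion, had -0.40 in Rif1KO against WT, and Foxn2 had -0.07.

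**Figure D5:**
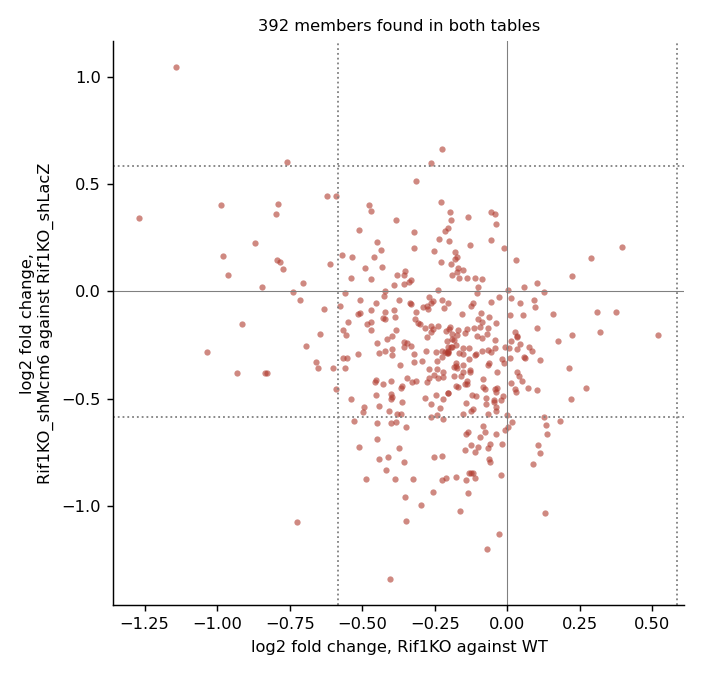
Log2 fold change in Rif1KO against WT (x axis) and in Rif1KO_shMcm6 against Rif1KO_shLacZ (y axis) of the 392 members matched 1 to 1 between the tables, 1 point per member. Dotted lines mark 1.5-fold, and Foxf1a is the only point in the lower left corner beyond both lines, 0.255% of members against 0.051% of all 25514 matched ISs. These 2 shares have unlike bases. In the comparisons taken singly 8.16% and 16.1% of members were lower, against 1.12% and 1.53% of all matched ISs.

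Sites found in one table only differed from the shared ones. Of the 847 members of the first table, 76.0% overlapped an IS of the second, against 84.0% of all ISs. The 203 that did not had a median GC content of 70.7%, against 65.2% for the 644 that did, a median fold change of -0.31 against -0.20, and 21.7% lower by 1.5-fold against 7.61%. Of the 950 members of the second table, 47.7% overlapped an IS of the first, against 23.9% of all ISs. The median fold change of the 497 that did not was 0.00, against -0.26 for the other 453, with 6.04% lower and 8.05% higher against 15.5% and 1.32%. In the lists of ISs called per group, 42.5% of the first table's members and 26.8% of the second's overlapped an IS of all 4 groups, against 40.3% and 11.5% of all ISs.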

How the data were processed

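SNS-seq was measured in 8 libraries, 2 for each of 4 groups. Per the study's methods, the authors trimmed and uniquely aligned reads to mm9, called peaks with MACS in each library without input, took the peaks shared by both libraries of a group, kept those that ClusterScan placed in clusters, and merged the peak sets of each pair of conditions with bedtools. The submitters' processing notes name Trim Galore 0.6.4, cutadapt 2.6, Bowtie 1.2.3 and bedtools. The authors deposited 2 tables that hold log2 RPM for each IS, 1 value per condition and so without replicate error. How the libraries were pooled is not given in the sources used here. Linear values sum to 1000000 and are whole multiples of 1 read (tolerance 1e-06 reads), from which reads were recovered. Merged peaks, unique alignment and the missing input can change densities at GC-rich or repeated sequence. The authors' category of fold change and their counts of merged peaks per IS were not used.

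GENCODE M1 TSSs and mm9 sequence placed each IS. The log2 fold change is the treated minus the control density, and the study's 1.5-fold (log2 of 0.58) set which sites were lower or higher. Its counting error comes from the reads of both conditions, shares have 95% Wilson intervals, and medians have order-statistic intervals over sites. These intervals treat sites as independent, the counting error covers the sampling of reads only, and PCR copies are not independent molecules. No test between conditions was made. GC content is that of the whole site, and skew and motifs are from 500 bp around the midpoint. Named genes are, per table, the 5 members with the lowest and the 5 with the highest fold change among those with at least 100 reads, the 5 densest in the control, and the 2 densest of each of 10 gene lists. Members and lists were chosen with earlier results of these data known. Alternatives changed the rule, the scale, a filter on low density, the threshold, the window and the motif. Python 3.11.15, pandas 2.3.3, numpy 2.4.6, scipy 1.17.1 and matplotlib 3.10.9 were used, and the scripts were tested on simulated data. One result is not reported here.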

Additional observations from a re-analysis of the deposited data

How the results depend on the processing

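No paired analysis was possible because each condition has a single deposited value, and for the same reason no library could be left out. No result changed sign. Of 62 recomputed values for 14 results, 32 stayed within the 95% interval of the reported value over sites and 30 moved beyond it.

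In Rif1KO against WT, the share of members lower by 1.5-fold (11.0%) was 8.32% among sites above the lower quartile of mean density, 2.01% past 2-fold and 35.5% past a log2 of 0.32. Over all ISs the shares under these settings were 0.938%, 0.0923% and 8.91%. Among sites called in both conditions, an alternative for the shares that was chosen after seeing the data, it was 2.27% for members and 0.342% for all ISs. The share higher (0.118%) was 0% on the log2(RPM + 1) scale, with the density filter, at 2-fold and in sites called in both, and 0.945% at a log2 of 0.32. Over all ISs the shares higher under these settings were 0.704%, 0.303%, 0.0350%, 0.0420% and 9.49%. The median fold change was -0.18 in sites called in both and -0.27 with a GC minimum of 65%. The density difference from all sites (0.60) was 0.52 with the filter. Measured from the first TSS of the gene, 65.1% of midpoints lay downstream, and with loops of up to 12 bases 96.5% of members had the G-quadruplex motif.

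After MCM6 depletion, the share lower (10.5%) was 7.16% on the log2(RPM + 1) scale, 0.842% at 2-fold, 31.7% at a log2 of 0.32 and 8.28% in sites called in both. Over all ISs these shares were 0.559%, 0.0514%, 11.5% and 0.776%. The share higher (4.84%) was 2.21%, 0.526%, 13.6% and 1.18% under the same settings and 2.72% with the filter. Over all ISs the shares higher were 2.95%, 0.970%, 14.4%, 1.32% and 3.02%. The median fold change was -0.17 in sites called in both. With a GC minimum of 65% it was -0.26, the density difference (0.30) was 0.17 and the skew was 0.13. From the first TSS 66.3% of midpoints lay downstream. The motif was present in 91.4% with loops of up to 12 bases and in 83.7% over the whole site. The thresholds count more or fewer sites by construction, and for the other settings the cause was not tested.

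Counting error limits single members. At the median it was 0.20 on the log2 scale in the first table and 0.16 in the second, against a threshold of 0.58. Spread between cultures is unknown.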
